A study of Mus musculus with 15 samples.

Results

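Collagens are the structural proteins of the extracellular matrix, and each is wound from polypeptide chains that separate genes encode. The collagen chain genes were taken by symbol, as every gene whose symbol is Col, a number, the letter a and a number. There were 44 of them among the 24015 genes in each count table, of which 11 encode fibrillar chains, 9 basement membrane chains and 24 chains of other collagens. Fibrillar chains (types I, II, III, V, XI, XXIV and XXVII) form the cross-striated fibrils that carry tension in skin, tendon and bone. Type IV chains form the sheet on which a basement membrane is built, and types XV, XVIII and VII lie in or anchor it. The others include chains that decorate fibrils (types IX, XII, XIV, XVI, XIX, XX and XXII), the beaded filaments of type VI, the short-chain nets of types VIII and X, and chains that span the cell membrane. Fibroblasts make most of the fibrillar collagen of connective tissue, so these genes are among the most active in cultured fibroblasts.

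The cells were MEFs of strain c57bl/6, which are connective tissue cells grown out of mouse embryos, and bulk RNA of each culture was sequenced after growth in DMEM with donor bovine serum. NSD2 KO cells were labelled Nsd2(-/-) and WT cells Nsd2(+/+); NSD2 methylates lysine 36 of histone H3 and is listed under its older symbol Whsc1. Cells were naive, or pretreated, which means 3 h with interferon beta, a wash and 24 h without it. Each kind was taken at 0 h, with no further interferon, or after interferon beta at 100 units/ml for 2 h, a second exposure for pretreated cells. The groups were KO naive 0 h (2 libraries), KO naive 2 h (1), KO pretreated 0 h (2) and KO pretreated 2 h (2), and the 4 matching WT groups had 2 libraries each, 15 libraries in all. The labels name no animal, clone or separate culture, so the p-values rest on the spread among libraries, part or all of which may be technical, and a difference between KO and WT is one between these cultures.

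The libraries held 17170845 to 44116418 counts in genes. Rn45s and Lars2, which hold ribosomal reads, took 10.6 to 29.4% of them, and under 20% in 3 libraries (KO pretreated 0 h replicate 2, WT pretreated 2 h replicate 1 and WT naive 0 h replicate 1). Whsc1 was counted at 91.5 to 124 CPM in KO and 106 to 151 CPM in WT, which overlap, and a gene-level count cannot show loss of single exons, so KO and WT stand for the labels. CPM are counts per 1000000 gene counts. Of 12 fibroblast markers, 10 passed 1 CPM on average in KO and 9 in WT, with vimentin and fibronectin among the most abundant genes, but Thy1 lay at 29.6 to 33.9 CPM in KO and 0.0474 to 0.175 CPM in WT, Pdgfra at 37.7 to 124 CPM in KO and 4.49 to 7.4 CPM in WT and decorin (Dcn) at 1.17 to 4.76 CPM in KO and 16.3 to 20.6 CPM in WT. Summed markers of endothelium (2.04 to 3.08 CPM in KO and 1.58 to 3.41 CPM in WT), macrophages and blood (1.55 to 2.54 CPM in KO and 3.13 to 5.12 CPM in WT) and skeletal muscle (1.75 to 3.11 CPM in KO and 2.51 to 4.95 CPM in WT) were near 0. Those of epithelium (55.8 to 71 CPM in KO and 17.6 to 30.7 CPM in WT), nerve and glia (53.3 to 76.1 CPM in KO and 25.2 to 40.4 CPM in WT) and adipocytes (17.4 to 28.5 CPM in KO and 3.61 to 5.48 CPM in WT) were higher in every KO library than in any WT library, with Krt19, Tubb3 and Cebpa the most abundant of them in KO. All 4 adipocyte markers tested (Pparg, Fabp4, Lpl and Cebpa) were called higher in KO, and so were Cdh1 (1.52 to 2.67 CPM in KO and 0 to 0.111 CPM in WT) and S100b (1.31 to 4.16 CPM in KO and 0.189 to 0.699 CPM in WT). The other 2 lists were mixed. Of the epithelium markers tested, 2 of 3 were called higher in KO and 1 lower, and of those of nerve and glia 2 of 5 higher and 2 lower. Krt8 lay at 0.292 to 2.33 CPM in KO and 0.99 to 3.48 CPM in WT, and Map2 at 1.0 to 1.89 CPM in KO and 8.08 to 15.6 CPM in WT. Of the other markers of these types, Epcam, Krt5, Krt14, Nefl, Plin1 and Lep were at or near 0 in all libraries. Smooth muscle and pericyte markers summed to 1064 to 1729.7 CPM in KO and 1678 to 2405 CPM in WT. Most of that sum was Acta2, at 790 to 1297 CPM in KO and 1511 to 2174 CPM in WT. Of 7 members tested, 4 were called higher in KO and 3 lower. Among the higher was Cspg4, at 147 to 177 CPM in KO and 9.04 to 14.9 CPM in WT. These sums move with the difference between KO and WT described below, and their part in it was not tested. In RNA from a whole culture, fewer cells of a type and less RNA per cell cannot be told apart.

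The 2 pairs of type IV genes with measurable levels lie head to head, on opposite strands and reading outward. The pairs behaved differently here, so their promoters are shown. Of the 44 genes, 35 had a window in RefSeq's table (build GRCm38.p6), which runs from 250 bases before to 50 after a gene's start. The windows of Col4a1 (chr8:11312777-11313076, minus strand) and Col4a2 (chr8:11312555-11312854, plus strand) overlap, and capitals mark the 78 bases that they share, read on opposite strands. In the windows of Col4a5 (chrX:141475169-141475468, plus strand) and Col4a6 (chrX:141474027-141474326, minus strand), which do not overlap, capitals mark matches, on either strand, of the CCAAT motif, of the GGGCGG motif or of the TATAAA motif.
Col4a1: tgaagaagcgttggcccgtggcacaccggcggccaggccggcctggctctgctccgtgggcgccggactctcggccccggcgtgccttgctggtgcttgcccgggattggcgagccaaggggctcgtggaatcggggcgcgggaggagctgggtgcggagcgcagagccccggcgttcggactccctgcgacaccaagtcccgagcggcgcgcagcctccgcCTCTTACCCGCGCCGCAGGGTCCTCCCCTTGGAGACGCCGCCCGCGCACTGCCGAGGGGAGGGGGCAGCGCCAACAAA
Col4a2: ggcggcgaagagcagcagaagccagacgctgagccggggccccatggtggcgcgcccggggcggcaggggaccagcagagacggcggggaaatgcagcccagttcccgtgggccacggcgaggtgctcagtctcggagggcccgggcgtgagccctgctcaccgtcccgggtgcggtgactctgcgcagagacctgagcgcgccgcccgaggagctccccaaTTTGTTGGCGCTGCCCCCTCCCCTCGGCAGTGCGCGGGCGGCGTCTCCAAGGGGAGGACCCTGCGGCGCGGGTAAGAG
Col4a5: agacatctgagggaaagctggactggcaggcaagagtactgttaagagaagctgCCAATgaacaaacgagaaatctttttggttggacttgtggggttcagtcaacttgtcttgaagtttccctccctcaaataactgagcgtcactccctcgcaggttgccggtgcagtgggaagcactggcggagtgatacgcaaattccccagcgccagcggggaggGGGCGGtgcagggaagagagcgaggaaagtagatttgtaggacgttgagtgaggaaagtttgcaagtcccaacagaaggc
Col4a6: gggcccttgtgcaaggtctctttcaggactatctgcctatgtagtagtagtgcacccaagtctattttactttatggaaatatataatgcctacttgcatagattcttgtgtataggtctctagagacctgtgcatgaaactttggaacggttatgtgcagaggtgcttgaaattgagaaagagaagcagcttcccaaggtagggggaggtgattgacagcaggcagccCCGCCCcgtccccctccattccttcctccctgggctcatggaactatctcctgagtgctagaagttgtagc
Col4a1 and Col4a2 each hold CCAAT and GGGCGG and lack TATAAA, and they count 37 and 33 CpG pairs in their 300 bases. Col4a5 also holds CCAAT and GGGCGG, with 11 CpG pairs, and Col4a6 holds GGGCGG alone, with 3. Over all 32851 windows of the table the median was 7 CpG pairs, 37.4% held CCAAT, 35.7% GGGCGG and 13.6% TATAAA, with both strands searched. A match is a description of letters and not of a bound site.

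Collagen made up 0.713 to 0.955% of gene counts in KO and 0.823 to 1.6% in WT. Summed over the 44 genes, KO libraries held 9357 and 9552 (naive 0 h), 7129.8 (naive 2 h), 7645 and 8642 (pretreated 0 h) and 8116 and 8398 (pretreated 2 h) CPM. WT libraries held 16035 and 12675 (naive 0 h), 11450.0 and 12115 (naive 2 h), 9553 and 9128 (pretreated 0 h) and 8879 and 8230.1 (pretreated 2 h) CPM. Naive WT cells at 0 h were highest, and the KO and WT ranges overlapped through the pretreated WT libraries. The mean was 8406 ± 872 CPM over 7 KO libraries and 11008 ± 2601 CPM over 8 WT libraries (SD).

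The makeup of this sum differed by genotype. Basement membrane chains took 15 to 17.4% of collagen counts in KO libraries and 5.58 to 8.83% in WT libraries. Type I chains took 42.2 to 48.2% in KO and 52 to 61.3% in WT. The ranges of these shares did not overlap. Fibrillar chains together took 67.6 to 72% in KO and 71.6 to 79.7% in WT, and other chains 12.9 to 15% in KO and 14.8 to 19.6% in WT, and both pairs of ranges touch or overlap. The summed basement membrane chains were also higher as a level, at 1211 to 1437 CPM in KO and 627 to 925 CPM in WT.

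**Figure D1:**
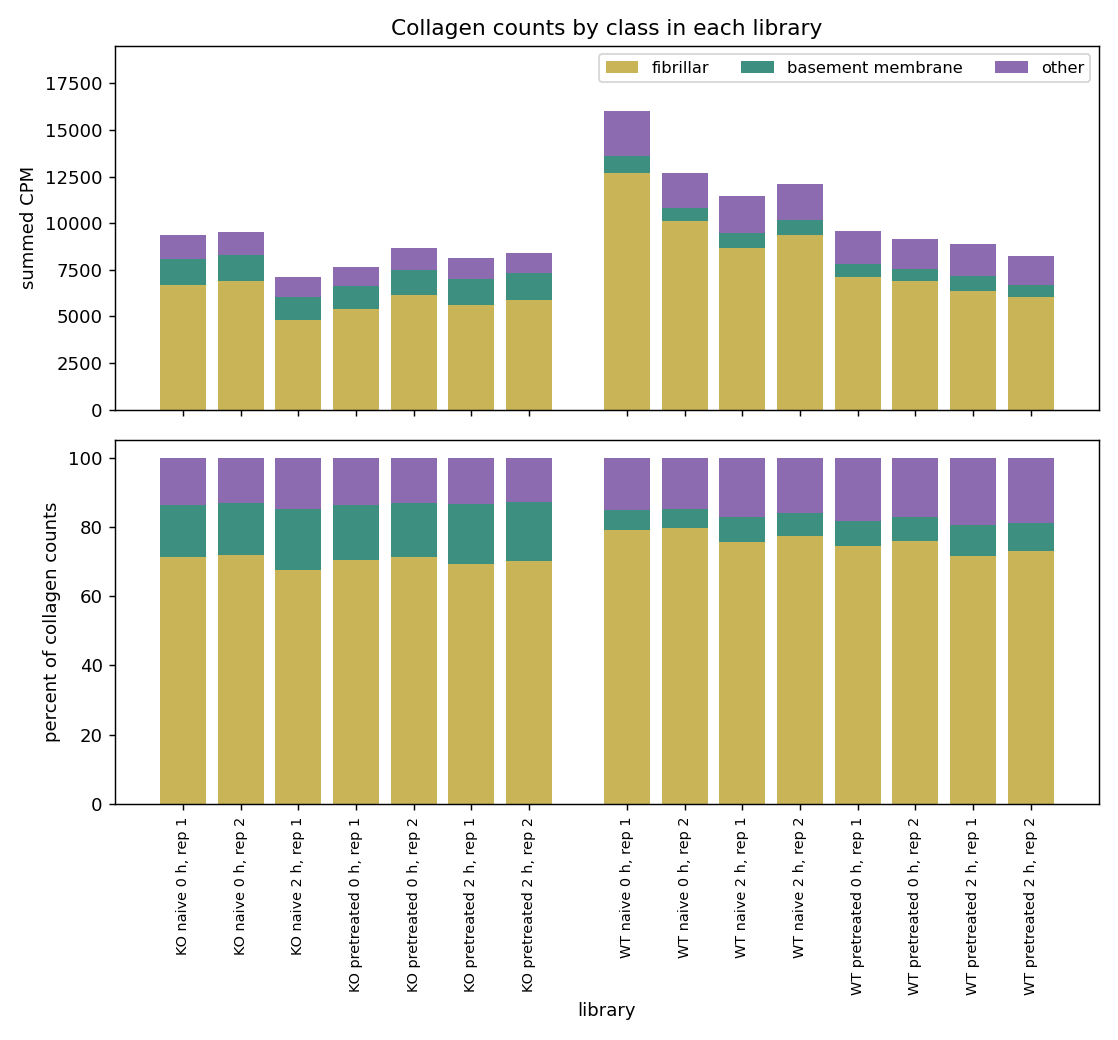
Summed CPM (top) and percent of collagen counts (bottom) of fibrillar, basement membrane and other collagen chain genes in each of the 15 libraries, KO left and WT right. The basement membrane share is 15% to 17.4% in KO and 5.58% to 8.83% in WT, and the tallest bar is WT naive 0 h replicate 1.

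The mean level of single chains ran from 0 CPM (Col26a1) to 4148 CPM (Col1a2) over the 15 libraries. Per length (RPKM, reads per kilobase of the principal transcript and per 1000000 gene counts), Col1a2 led with a mean of 776, followed by Col1a1 (177), Col5a2 (159.8), Col4a1 (90.2), Col6a3 (75.4), Col6a1 (68.2) and Col3a1 (61.4). These are a tissue's load-bearing fibril chains, the main basement membrane chain and the type VI filament chains. Lengths came from GENCODE M21 and the counts from another build, so levels between genes are approximate. Of the 44 genes, 30 were counted in every library. Col26a1 had no count in any library, Col13a1 had 1 count in 1 WT library, and Col25a1 had 5 counts, all in KO.

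**Figure D2:**
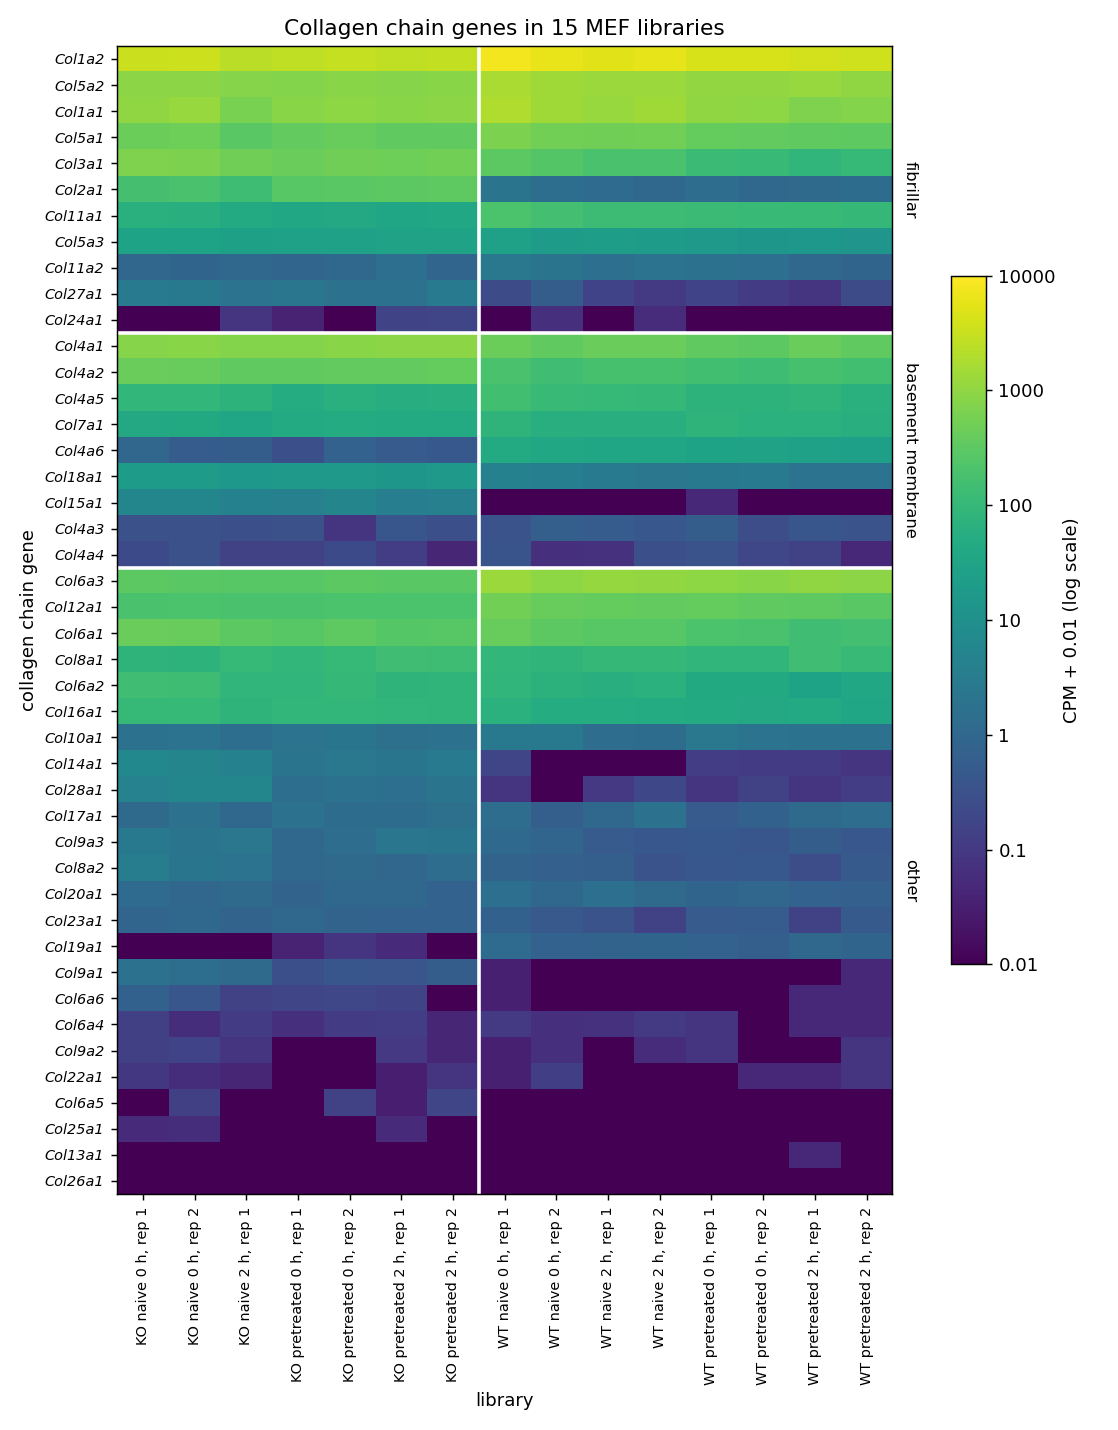
Level of each of the 44 collagen chain genes (rows, grouped by class and ordered by mean CPM) in each library (columns, KO left of the white line and WT right), coloured by CPM + 0.01 on a log scale. Col2a1, Col15a1, Col14a1 and Col28a1 are brighter in KO, and Col4a6 and Col19a1 in WT.

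KO and WT differed at most collagen chain genes. Averaged over the 4 conditions, 20 of the 36 genes that passed the filter on low counts were higher in KO and 12 lower (edgeR's quasi-likelihood test, Benjamini-Hochberg adjusted p below 0.05 over all genes), and 4 were not called. Of all 13802 genes tested, 79.4% were called (41.3% higher and 38.1% lower), so the count alone does not set collagens apart from other genes. The median log2 change was 0.44 over the collagens and 0.025 over all genes. It stayed at 0.44 when the 5 collagens with no count in a group were set to the ratio of their counts summed per genotype. Sums below 3 counts were set to 3 for this. By class, 4 of 10 fibrillar chains were higher and 6 lower (median -0.30), 4 of 9 basement membrane chains were higher and 3 lower (median -0.18), and 12 of 17 other chains were higher and 3 lower (median 0.93). In CPM, 13 genes were above in every KO library and 8 below (13.4% and 14.6% of all genes tested).

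The calls varied little between conditions. KO and WT differed at 29 collagens at naive 0 h (17 higher and 12 lower, where 67.1% of all genes were called, 34.3% higher and 32.7% lower), at 30 at naive 2 h (19 and 11, where 61.2% of all genes were called, 32.3% and 28.8%), at 29 at pretreated 0 h (18 and 11, where 64.7% of all genes were called, 32.8% and 31.8%) and at 28 at pretreated 2 h (19 and 9, where 66.3% of all genes were called, 35.6% and 30.7%). In all 4 conditions 16 genes were called higher and 9 lower. The share of all genes called the same way in all 4 was not counted, so these counts do not set collagens apart. A single gene, Col1a1, was called in opposite directions at naive 0 h and at pretreated 2 h. Naive 2 h rests on 1 KO library, and leaving that condition out of the average, an alternative chosen after seeing the data, gave 31 called genes. Not tested for low counts were 8 members, Col6a4, Col6a5, Col9a2, Col13a1, Col22a1, Col24a1, Col25a1 and Col26a1.

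**Figure D3:**
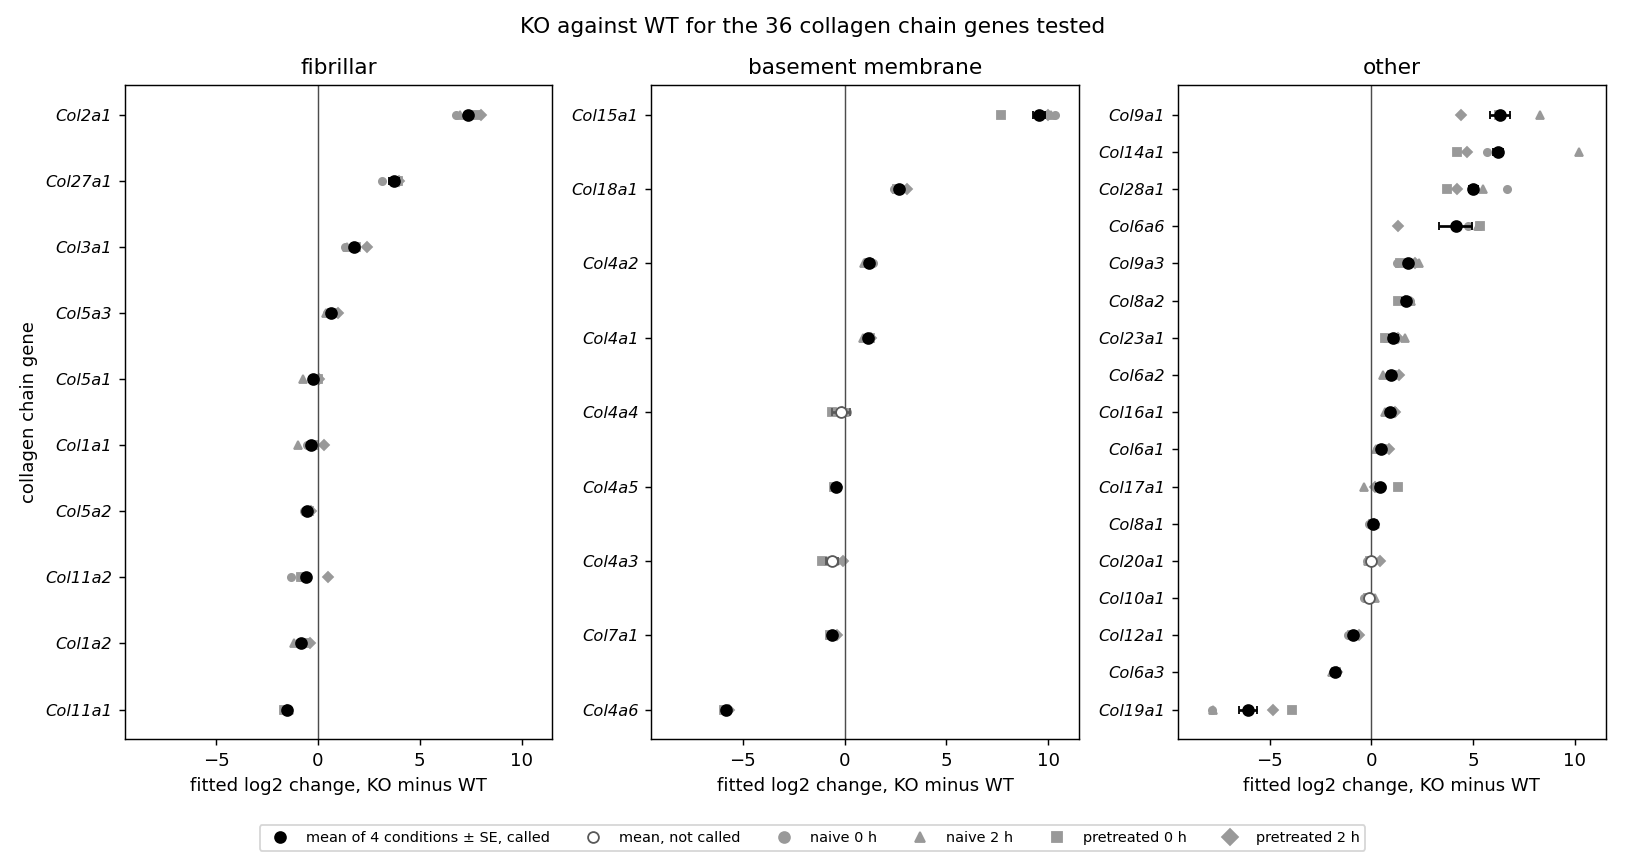
Fitted log2 change, KO minus WT, of the 36 collagen chain genes tested, by class. Black points are the mean of 4 conditions with its SE (open where not called), and grey symbols are the single conditions; Col2a1, Col15a1, Col9a1 and Col14a1 lie far right and Col4a6 and Col19a1 far left.

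Among fibrillar chains, type II and type III collagen were higher in KO and type I lower. Col2a1, the chain of cartilage fibrils, showed the widest gap of these. Col2a1 stood at 174 and 188 CPM (naive 0 h), 140.1 (naive 2 h), 278 and 285 (pretreated 0 h) and 307 and 328 (pretreated 2 h) in KO libraries. WT libraries held 1.97 and 1.46 CPM (naive 0 h), 1.21 and 0.996 (naive 2 h), 1.4 and 1.04 (pretreated 0 h) and 1.21 and 1.28 (pretreated 2 h). Every KO library was far above every WT library, at a log2 difference of 7.39 ± 0.049 (edgeR adjusted p = 3.2e-39). Per length, Col2a1 reached 0.184 to 0.426 of the Col1a1 level in KO and 0.00084 to 0.00202 in WT. Of 16 markers of cartilage and bone, 6 were tested, of which 1 was called higher in KO (Matn3, a cartilage matrix protein, at 0.86 to 1.32 CPM in KO and 0.285 to 0.877 CPM in WT) and 1 lower (Phex, at 3.45 to 4.79 CPM in KO and 12.7 to 15.8 CPM in WT). Comp lay at 0.28 to 0.709 CPM in KO and 0.0474 to 0.49 CPM in WT and was not called. The sum of the list, made up mostly of Sox9, Runx2 and Phex, was 52 to 57.9 CPM in KO and 52.8 to 85.8 CPM in WT. Sox9, the regulator that drives Col2a1 in cartilage, lay at 18.9 to 26.5 CPM in KO and 14.1 to 36.2 CPM in WT, and Acan, Matn1 and Hapln1 were at or near 0 in both. The part of these markers in the Col2a1 result was not tested. Col27a1, another fibrillar chain known from cartilage, was also higher in KO, with a log2 difference of 3.73 ± 0.24 (edgeR adjusted p = 7.3e-15). Col27a1 stood at 3.17 and 2.64 CPM (naive 0 h), 1.88 (naive 2 h), 2.31 and 1.82 (pretreated 0 h) and 1.84 and 2.92 (pretreated 2 h) in KO libraries. WT libraries held 0.24 and 0.582 CPM (naive 0 h), 0.151 and 0.0948 (naive 2 h), 0.147 and 0.108 (pretreated 0 h) and 0.0731 and 0.226 (pretreated 2 h). The groups did not overlap at these low levels.

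Col3a1, which forms fibrils with type I collagen in distensible tissues, was higher in KO with a log2 difference of 1.76 ± 0.037 (edgeR adjusted p = 7.8e-27). Col3a1 stood at 684 and 644 CPM (naive 0 h), 491 (naive 2 h), 420.2 and 512 (pretreated 0 h) and 486 and 528 (pretreated 2 h) in KO libraries. WT libraries held 303 and 246 CPM (naive 0 h), 186 and 190.0 (naive 2 h), 125 and 117 (pretreated 0 h) and 89.1 and 105 (pretreated 2 h). Every KO library exceeded every WT library, and naive 0 h was highest in both genotypes. Against Col1a1 per length, Col3a1 stood at 0.517 to 0.839 in KO and 0.129 to 0.183 in WT. Col5a3, a minor type V chain, lay at 26.1 to 30.7 CPM in KO and 13.4 to 27.6 CPM in WT and was higher with a log2 difference of 0.62 ± 0.044 (edgeR adjusted p = 9.5e-14).

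The type I chains, which form the bulk of fibrils in skin, tendon and bone, were lower in KO on average. Col1a2 stood at 3364 and 3421 CPM (naive 0 h), 2381 (naive 2 h), 2628 and 3029 (pretreated 0 h) and 2729.9 and 2869 (pretreated 2 h) in KO libraries. WT libraries held 7906 and 6338 CPM (naive 0 h), 5388 and 5852 (naive 2 h), 4386 and 4315 (pretreated 0 h) and 3921 and 3697 (pretreated 2 h). Each KO library was below each WT library, at a log2 difference of -0.83 ± 0.027 (edgeR adjusted p = 6.3e-22), and the KO and WT groups were closest at pretreated 2 h (-0.41 ± 0.050). Its partner chain Col1a1 was lower with a log2 difference of -0.35 ± 0.041 (edgeR adjusted p = 4.8e-09). Col1a1 stood at 993 and 1187 CPM (naive 0 h), 624 (naive 2 h), 867 and 977 (pretreated 0 h) and 861 and 894 (pretreated 2 h) in KO libraries. WT libraries held 1895 and 1429 CPM (naive 0 h), 1178 and 1377 (naive 2 h), 1031 and 951 (pretreated 0 h) and 694 and 758 (pretreated 2 h). The KO and WT ranges of Col1a1 overlapped, and pretreated WT libraries at 2 h lay below every KO library but the naive 2 h one. At naive 0 h Col1a1 was lower in KO with a log2 difference of -0.53 ± 0.076 (edgeR adjusted p = 4.1e-07) and at pretreated 2 h higher with a log2 difference of 0.30 ± 0.076 (edgeR adjusted p = 9.7e-04). Without WT pretreated 2 h replicate 1 the difference at pretreated 2 h was 0.14 (edgeR adjusted p = 0.11) and was not called.

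Types V and XI regulate how fibrils start and how thick they grow. Col5a2 was lower in KO with a log2 difference of -0.52 ± 0.023 (edgeR adjusted p = 5.9e-19). Col5a2 stood at 906 and 883 CPM (naive 0 h), 815 (naive 2 h), 766 and 879.8 (pretreated 0 h) and 832 and 862 (pretreated 2 h) in KO libraries. WT libraries held 1702 and 1364 CPM (naive 0 h), 1269 and 1285 (naive 2 h), 1069 and 1052 (pretreated 0 h) and 1179 and 1012 (pretreated 2 h). No KO library reached the lowest WT library. Col5a1 was lower with a log2 difference of -0.25 ± 0.023 (edgeR adjusted p = 5.3e-11) on average, with called differences at naive 0 h (-0.32 ± 0.044) and naive 2 h (-0.75 ± 0.056) and none in pretreated cells. Col5a1 stood at 455 and 462 CPM (naive 0 h), 292 (naive 2 h), 369 and 398 (pretreated 0 h) and 346 and 345 (pretreated 2 h) in KO libraries. WT libraries held 659 and 539 CPM (naive 0 h), 499 and 515 (naive 2 h), 374 and 359 (pretreated 0 h) and 346 and 328 (pretreated 2 h). The pretreated KO and WT libraries overlapped. Col11a1 was lower in KO with a log2 difference of -1.53 ± 0.030 (edgeR adjusted p = 1.2e-27). Col11a1 stood at 64.5 and 57.9 CPM (naive 0 h), 47.5 (naive 2 h), 37 and 41.2 (pretreated 0 h) and 32.9 and 37.1 (pretreated 2 h) in KO libraries. WT libraries held 200 and 157 CPM (naive 0 h), 129.8 and 133 (naive 2 h), 121 and 114 (pretreated 0 h) and 108 and 99.6 (pretreated 2 h). Every KO library lay below every WT library. Col11a2, the other type XI chain, was lower with a log2 difference of -0.60 ± 0.15 (edgeR adjusted p = 4.8e-04). Col11a2 stood at 0.96 and 0.847 CPM (naive 0 h), 0.993 (naive 2 h), 0.89 and 1.05 (pretreated 0 h) and 1.54 and 0.895 (pretreated 2 h) in KO libraries. WT libraries held 2.57 and 2.04 CPM (naive 0 h), 1.54 and 1.94 (naive 2 h), 1.73 and 1.55 (pretreated 0 h) and 1.02 and 0.83 (pretreated 2 h). The groups overlapped at pretreated 2 h alone when conditions were matched. Col24a1, the remaining fibrillar chain, had too few counts for the test.

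The major type IV chains were both higher in KO, and the minor chain Col4a6 was far lower. Col4a1 and Col4a2, which are wound into 1 heterotrimer and share the stretch of promoter printed above, were higher in KO with a log2 difference of 1.15 ± 0.023 (edgeR adjusted p = 2.6e-27) and 1.19 ± 0.025 (edgeR adjusted p = 4.6e-27). Col4a1 stood at 824 and 859.6 CPM (naive 0 h), 772 (naive 2 h), 756 and 858 (pretreated 0 h) and 913 and 907 (pretreated 2 h) in KO libraries. WT libraries held 443 and 341 CPM (naive 0 h), 426 and 426 (naive 2 h), 340.2 and 311 (pretreated 0 h) and 425 and 351 (pretreated 2 h). All KO libraries stood above all WT libraries. Col4a2 stood at 426 and 413 CPM (naive 0 h), 338 (naive 2 h), 336 and 361 (pretreated 0 h) and 371 and 387 (pretreated 2 h) in KO libraries. WT libraries held 194 and 147 CPM (naive 0 h), 183 and 179 (naive 2 h), 153 and 139 (pretreated 0 h) and 177 and 152 (pretreated 2 h). The same held for Col4a2, and the ratio of Col4a1 to Col4a2 per length was 1.88 to 2.4 in KO and 2.17 to 2.34 in WT, which overlap. The genes' starts are adjacent and the counting strand is not given in the sources used here, so reads over the overlap cannot be assigned to one of them with certainty.

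Col4a6 and Col4a5, the head-to-head pair on chromosome X, were both lower in KO but by very different amounts. Col4a6 was lower in KO with a log2 difference of -5.82 ± 0.083 (edgeR adjusted p = 2.6e-31). Col4a6 stood at 0.96 and 0.548 CPM (naive 0 h), 0.582 (naive 2 h), 0.278 and 0.77 (pretreated 0 h) and 0.521 and 0.447 (pretreated 2 h) in KO libraries. WT libraries held 47.4 and 36.7 CPM (naive 0 h), 33.9 and 36.1 (naive 2 h), 29.6 and 28.4 (pretreated 0 h) and 27.4 and 24.4 (pretreated 2 h). The KO libraries were near 0 and the WT libraries far above them. Col4a5, whose chain can form a network with that of Col4a6, was lower with a log2 difference of -0.45 ± 0.029 (edgeR adjusted p = 8.3e-15). Col4a5 stood at 92.1 and 91.7 CPM (naive 0 h), 75.2 (naive 2 h), 52.3 and 63.2 (pretreated 0 h) and 54 and 57.7 (pretreated 2 h) in KO libraries. WT libraries held 153 and 116 CPM (naive 0 h), 106 and 101 (naive 2 h), 77.4 and 77.7 (pretreated 0 h) and 83.2 and 66.1 (pretreated 2 h). Its KO and WT ranges overlapped across conditions, though within each condition KO was lower. Per length, Col4a5 exceeded Col4a6 by 83.5 to 192 times in KO and 2.66 to 3.29 times in WT. Col4a3 and Col4a4, the third head-to-head pair, lay at 0.070 to 0.385 CPM in KO and 0.252 to 0.641 CPM in WT and at 0.0344 to 0.299 CPM in KO and 0.0377 to 0.361 CPM in WT. Neither was called, with 95% intervals of the log2 change from -1.22 to 0.0047 for Col4a3 and -1.07 to 0.70 for Col4a4. Col4a3 was called lower in KO under scaling by total gene counts alone, and without KO pretreated 0 h replicate 1 (-1.0, edgeR adjusted p = 0.011), WT naive 0 h replicate 1 (-0.79, edgeR adjusted p = 0.02) or WT pretreated 0 h replicate 2 (-0.72, edgeR adjusted p = 0.029).

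Of the collagens of the basement membrane zone, types XV and XVIII were higher in KO and type VII lower. Col15a1 was counted almost solely in KO. Col15a1 stood at 5.68 and 5.68 CPM (naive 0 h), 4.25 (naive 2 h), 4.14 and 5.49 (pretreated 0 h) and 3.65 and 4.2 (pretreated 2 h) in KO libraries. The WT libraries together held 1 count of it against 1077 in KO, a ratio of 1034-fold (95% counting interval 185 to 40861; edgeR adjusted p = 2.7e-21). Col18a1, whose product releases the fragment endostatin, was higher in KO with a log2 difference of 2.66 ± 0.063 (edgeR adjusted p = 1.2e-25). Col18a1 stood at 20.6 and 21 CPM (naive 0 h), 15.7 (naive 2 h), 16.3 and 17.3 (pretreated 0 h) and 14.9 and 17 (pretreated 2 h) in KO libraries. WT libraries held 4.3 and 3.9 CPM (naive 0 h), 2.93 and 2.37 (naive 2 h), 2.65 and 2.74 (pretreated 0 h) and 1.94 and 1.92 (pretreated 2 h). The groups did not overlap. Col7a1, which forms the anchoring fibrils under epithelia, was lower in KO with a log2 difference of -0.62 ± 0.034 (edgeR adjusted p = 1.3e-16). Col7a1 stood at 42.9 and 44.6 CPM (naive 0 h), 34.3 (naive 2 h), 45.9 and 48.1 (pretreated 0 h) and 46.9 and 47.1 (pretreated 2 h) in KO libraries. WT libraries held 81.8 and 62.4 CPM (naive 0 h), 58 and 59 (naive 2 h), 80.8 and 66.8 (pretreated 0 h) and 69.4 and 57.9 (pretreated 2 h). Every KO library was below every WT library.

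The type VI chains, which assemble as trimers in beaded filaments, did not move together. Col6a3 was lower in KO with a log2 difference of -1.79 ± 0.028 (edgeR adjusted p = 2.3e-30). Col6a3 stood at 308 and 299 CPM (naive 0 h), 275 (naive 2 h), 280.0 and 302 (pretreated 0 h) and 296 and 285 (pretreated 2 h) in KO libraries. WT libraries held 1227 and 946 CPM (naive 0 h), 1100.2 and 1071 (naive 2 h), 979 and 871 (pretreated 0 h) and 1032 and 916 (pretreated 2 h). KO libraries varied little and all lay far below WT. Col6a1 and Col6a2, neighbours on chromosome 10, were higher in KO with a log2 difference of 0.47 ± 0.032 (edgeR adjusted p = 3.7e-14) and 0.95 ± 0.042 (edgeR adjusted p = 7.9e-19). Col6a1 stood at 418 and 394 CPM (naive 0 h), 306 (naive 2 h), 281 and 319 (pretreated 0 h) and 262 and 274 (pretreated 2 h) in KO libraries. WT libraries held 395 and 315 CPM (naive 0 h), 269 and 274 (naive 2 h), 199.6 and 189 (pretreated 0 h) and 145 and 159 (pretreated 2 h). Its ranges overlapped across conditions, and within naive 0 h a WT library reached the KO level. Col6a2 stood at 143 and 138 CPM (naive 0 h), 88.9 (naive 2 h), 90.6 and 99.4 (pretreated 0 h) and 79.1 and 85.5 (pretreated 2 h) in KO libraries. WT libraries held 89.6 and 71.5 CPM (naive 0 h), 57.8 and 67.4 (naive 2 h), 45 and 43.7 (pretreated 0 h) and 30 and 36.5 (pretreated 2 h). Within each condition both KO and WT libraries of Col6a2 stood apart, with KO higher, and the ranges met only across conditions. Per length, the ratio of Col6a1 to Col6a3 was 1.94 to 2.98 in KO and 0.308 to 0.73 in WT. Col6a6, a chain that can take the place of Col6a3, had 55 counts in KO and 3 in WT, a ratio of 17.6-fold (95% counting interval 5.71 to 87.9). Its call was lost without KO pretreated 2 h replicate 1 (edgeR adjusted p = 1.0).

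Among the chains that sit on fibril surfaces, types IX and XIV were higher in KO and types XII and XIX lower. Col14a1, which binds fibrils through decorin, had 815 counts in KO and 18 in WT, a ratio of 43.5-fold (95% counting interval 27.3 to 73.7; edgeR adjusted p = 1.4e-19). Col14a1 stood at 6.3 and 5.31 CPM (naive 0 h), 4.42 (naive 2 h), 1.97 and 2.52 (pretreated 0 h) and 2.15 and 2.89 (pretreated 2 h) in KO libraries. WT libraries held 0.168 and 0 CPM (naive 0 h), 0 and 0 (naive 2 h), 0.111 and 0.108 (pretreated 0 h) and 0.11 and 0.0754 (pretreated 2 h). Col9a1, a chain of the cartilage fibril surface, had 191 counts in KO and 2 in WT, a ratio of 91.6-fold (95% counting interval 25 to 762; edgeR adjusted p = 4.3e-12). Col9a1 stood at 1.79 and 1.49 CPM (naive 0 h), 1.16 (naive 2 h), 0.278 and 0.385 (pretreated 0 h) and 0.363 and 0.585 (pretreated 2 h) in KO libraries. WT libraries held 0.024 and 0 CPM (naive 0 h), 0 and 0 (naive 2 h), 0 and 0 (pretreated 0 h) and 0 and 0.0377 (pretreated 2 h). For both, the lowest KO library was above the highest WT library, and naive KO libraries were the highest. Col9a3, which pairs with Col9a1 in type IX collagen, was higher with a log2 difference of 1.79 ± 0.15 (edgeR adjusted p = 3.5e-12). Col9a3 stood at 2.59 and 2.07 CPM (naive 0 h), 2.36 (naive 2 h), 1.0 and 1.4 (pretreated 0 h) and 2.24 and 2.1 (pretreated 2 h) in KO libraries. WT libraries held 1.13 and 0.874 CPM (naive 0 h), 0.514 and 0.427 (naive 2 h), 0.442 and 0.396 (pretreated 0 h) and 0.585 and 0.415 (pretreated 2 h). KO pretreated 0 h replicate 1 lay under WT naive 0 h replicate 1, so the ranges overlapped, and Col9a2, the remaining chain of type IX, had too few counts for the test.

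Col19a1 was counted almost solely in WT, with 5 counts in KO and 198 in WT, lower in KO by 41.3-fold (95% counting interval 17.4 to 128; edgeR adjusted p = 3.2e-13). Col19a1 stood at 0 and 0 CPM (naive 0 h), 0 (naive 2 h), 0.0278 and 0.070 (pretreated 0 h) and 0.0453 and 0 (pretreated 2 h) in KO libraries. WT libraries held 1.25 and 0.757 CPM (naive 0 h), 0.816 and 0.854 (naive 2 h), 0.774 and 0.648 (pretreated 0 h) and 0.987 and 0.83 (pretreated 2 h). It lies tail to tail with Col9a1 on chromosome 1, and the 2 genes differed in opposite directions. Col12a1, found along fibrils of tendon and periosteum, was lower in KO with a log2 difference of -0.90 ± 0.027 (edgeR adjusted p = 3.4e-23). Col12a1 stood at 190.4 and 201 CPM (naive 0 h), 194 (naive 2 h), 189 and 203 (pretreated 0 h) and 205 and 199 (pretreated 2 h) in KO libraries. WT libraries held 528 and 397 CPM (naive 0 h), 384 and 369.9 (naive 2 h), 376 and 337 (pretreated 0 h) and 333 and 291 (pretreated 2 h). The KO libraries were nearly alike and all below WT. Col16a1 lay at 78.6 to 107 CPM in KO and 35.2 to 69.4 CPM in WT and was higher with a log2 difference of 0.93 ± 0.033 (edgeR adjusted p = 2.8e-21).

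Of the remaining chains, Col28a1, a type with von Willebrand factor A domains known from peripheral nerve, had 727 counts in KO and 21 in WT, a ratio of 33.2-fold (95% counting interval 21.6 to 54; edgeR adjusted p = 2.1e-19). Col28a1 stood at 4.59 and 5.53 CPM (naive 0 h), 5.75 (naive 2 h), 1.45 and 1.71 (pretreated 0 h) and 1.52 and 2.03 (pretreated 2 h) in KO libraries. WT libraries held 0.0721 and 0 CPM (naive 0 h), 0.0907 and 0.19 (naive 2 h), 0.0737 and 0.144 (pretreated 0 h) and 0.0731 and 0.113 (pretreated 2 h). All KO libraries exceeded all WT libraries, and naive KO libraries stood above pretreated ones. Col8a2 lay at 0.952 to 3.46 CPM in KO and 0.256 to 0.793 CPM in WT and was higher in KO with a log2 difference of 1.71 ± 0.19 (edgeR adjusted p = 2.5e-09). Its partner in the short-chain nets, Col8a1, differed on average with a log2 difference of 0.07 ± 0.025 (edgeR adjusted p = 0.008), a call lost under scaling by total gene counts alone (0.05, edgeR adjusted p = 0.50). The membrane-spanning chains Col17a1 (1.03 to 1.86 CPM in KO and 0.516 to 1.75 CPM in WT) and Col23a1 (0.757 to 0.996 CPM in KO and 0.142 to 0.721 CPM in WT) were higher in KO with a log2 difference of 0.42 ± 0.17 and 1.08 ± 0.22 on average, and the call of Col17a1 was lost when any 1 of 7 libraries was left out and by DESeq2. Col10a1, the chain of hypertrophic cartilage, and Col20a1 were not called, with 95% intervals of the log2 change from -0.35 to 0.12 and from -0.34 to 0.30.

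**Figure D4:**
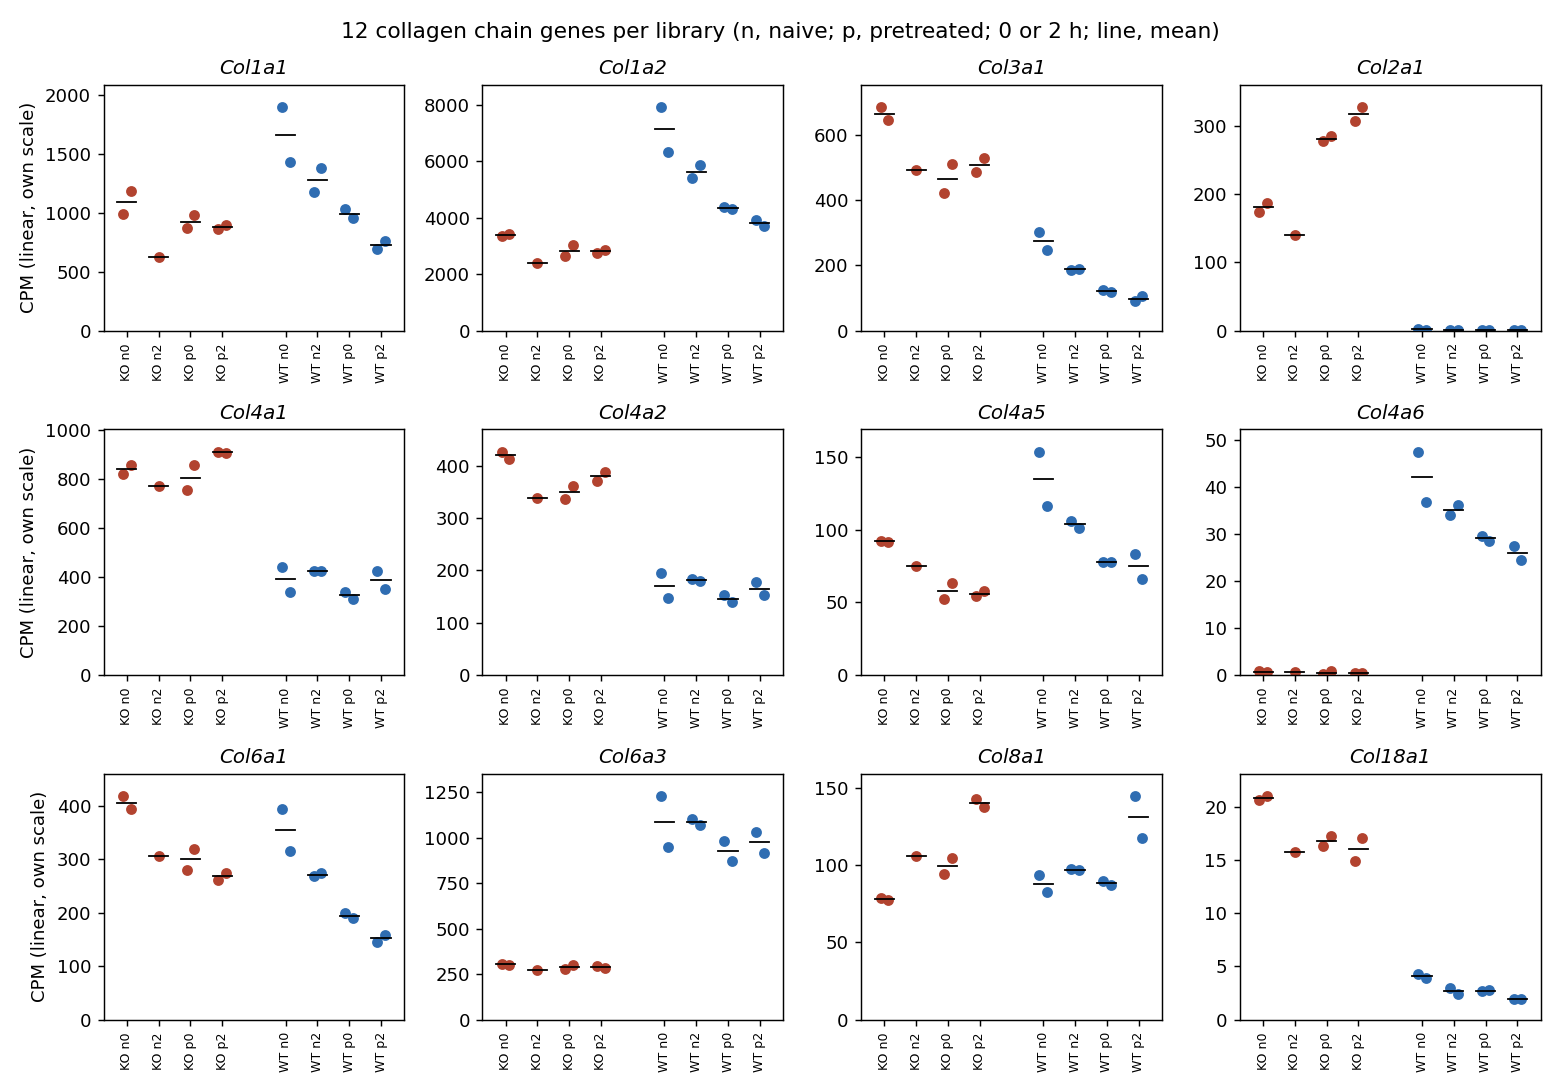
CPM of 12 collagen chain genes per library on linear axes from 0, each panel with its own scale; points are libraries, lines group means, KO left (red) and WT right (blue), n for naive and p for pretreated at 0 or 2 h. Col2a1, Col3a1, Col4a1, Col4a2 and Col18a1 are higher in KO, Col4a6, Col6a3 and Col1a2 in WT, and Col8a1 is highest at pretreated 2 h in both.

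Washout is the comparison, at 0 h, of pretreated cells with naive ones, 24 h after the first interferon was taken off. Most called collagens were lower in pretreated cells of both genotypes. In KO, 2 of 36 were higher and 16 lower, where 21.7% of all genes were called (11.1% higher and 10.6% lower). In WT, 2 were higher and 15 lower, where 24% of all genes were called (12.6% higher and 11.4% lower). The median log2 change was -0.25 in KO and -0.39 in WT over the collagens, against -0.014 and -0.0036 over all genes. Called lower in both were 11 genes (Col1a1, Col1a2, Col3a1, Col4a5, Col5a1, Col6a1, Col6a2, Col9a3, Col11a1, Col16a1 and Col18a1), and called higher in both was Col8a1 alone. The share of all genes called the same way in both genotypes was not counted, so this overlap cannot be compared with that of other genes. Of the 11, 4 lost a call when 1 library was left out, Col1a1 in KO and Col9a3, Col16a1 and Col18a1 in both. Col1a1 in KO was -0.10 (edgeR adjusted p = 0.50) without KO naive 0 h replicate 2, and Col16a1 in KO was -0.10 (edgeR adjusted p = 0.39) without KO pretreated 0 h replicate 2. Col9a3 in KO was -0.78 (edgeR adjusted p = 0.056) without KO pretreated 0 h replicate 1. Col18a1 in WT lost the call without any 1 of the 4 WT libraries compared. The WT count fell to 11 without WT naive 0 h replicate 1, the library with the highest collagen sum and the lowest share of Rn45s and Lars2. The KO count was 11 when libraries were scaled by total gene counts alone, where Col1a1, Col1a2, Col5a1, Col16a1 and Col18a1 were among those lost.

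Among called genes in KO, the largest falls were in chains on fibril surfaces and type XXVIII. Col9a1 was lower in pretreated than in naive KO cells with a log2 difference of -2.28 ± 0.36 (edgeR adjusted p = 3.6e-05), Col28a1 with a log2 difference of -1.68 ± 0.20 (edgeR adjusted p = 1.8e-07) and Col14a1 with a log2 difference of -1.35 ± 0.19 (edgeR adjusted p = 3.4e-06). For each the 2 pretreated KO libraries given above were below the 2 naive ones. In WT these genes were at or near 0. Among called genes, the largest WT falls were those of Col9a3 (-1.10 ± 0.35, edgeR adjusted p = 0.019), Col3a1 (-1.02 ± 0.073, edgeR adjusted p = 2.6e-11) and Col6a1 (-0.70 ± 0.061, edgeR adjusted p = 9.1e-10). Col3a1 in WT was lower at 125 and 117 CPM pretreated, against 303 and 246 CPM naive. The call of Col9a3 in WT was lost without WT naive 0 h replicate 1 (-1.03, edgeR adjusted p = 0.18) or without either pretreated 0 h library.

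The rises were fewer. Col2a1 was higher in pretreated than in naive KO cells with a log2 difference of 0.65 ± 0.049 (edgeR adjusted p = 2.9e-11), while in WT, where it was near 1 CPM, it was not called (-0.35 ± 0.23, edgeR adjusted p = 0.28). Col8a1, a chain of the nets under vascular and corneal endothelium, was higher in pretreated cells with a log2 difference of 0.36 ± 0.047 (edgeR adjusted p = 9.9e-07) in KO and 0.18 ± 0.048 (edgeR adjusted p = 0.0071) in WT. Col8a1 stood at 79 and 77.5 CPM (naive 0 h), 106 (naive 2 h), 94.2 and 105 (pretreated 0 h) and 143 and 138 (pretreated 2 h) in KO libraries. WT libraries held 94 and 82.5 CPM (naive 0 h), 97.6 and 96.9 (naive 2 h), 90.1 and 87.4 (pretreated 0 h) and 145 and 118 (pretreated 2 h). The WT libraries at 0 h overlapped in CPM, and the WT call was lost without WT naive 0 h replicate 1 (0.13, edgeR adjusted p = 0.18). Under scaling by total gene counts alone both calls of Col8a1 were lost (0.35, edgeR adjusted p = 0.11, in KO and 0.0063, edgeR adjusted p = 0.99, in WT). Col7a1 was higher in pretreated WT cells with a log2 difference of 0.19 ± 0.060 (edgeR adjusted p = 0.019), and it lost the call without WT naive 0 h replicate 2 (0.15, edgeR adjusted p = 0.15) or WT pretreated 0 h replicate 1 (0.07, edgeR adjusted p = 0.52). Col4a1 was not called in either genotype (-0.05 ± 0.044 in KO and -0.10 ± 0.045 in WT).

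**Figure D5:**
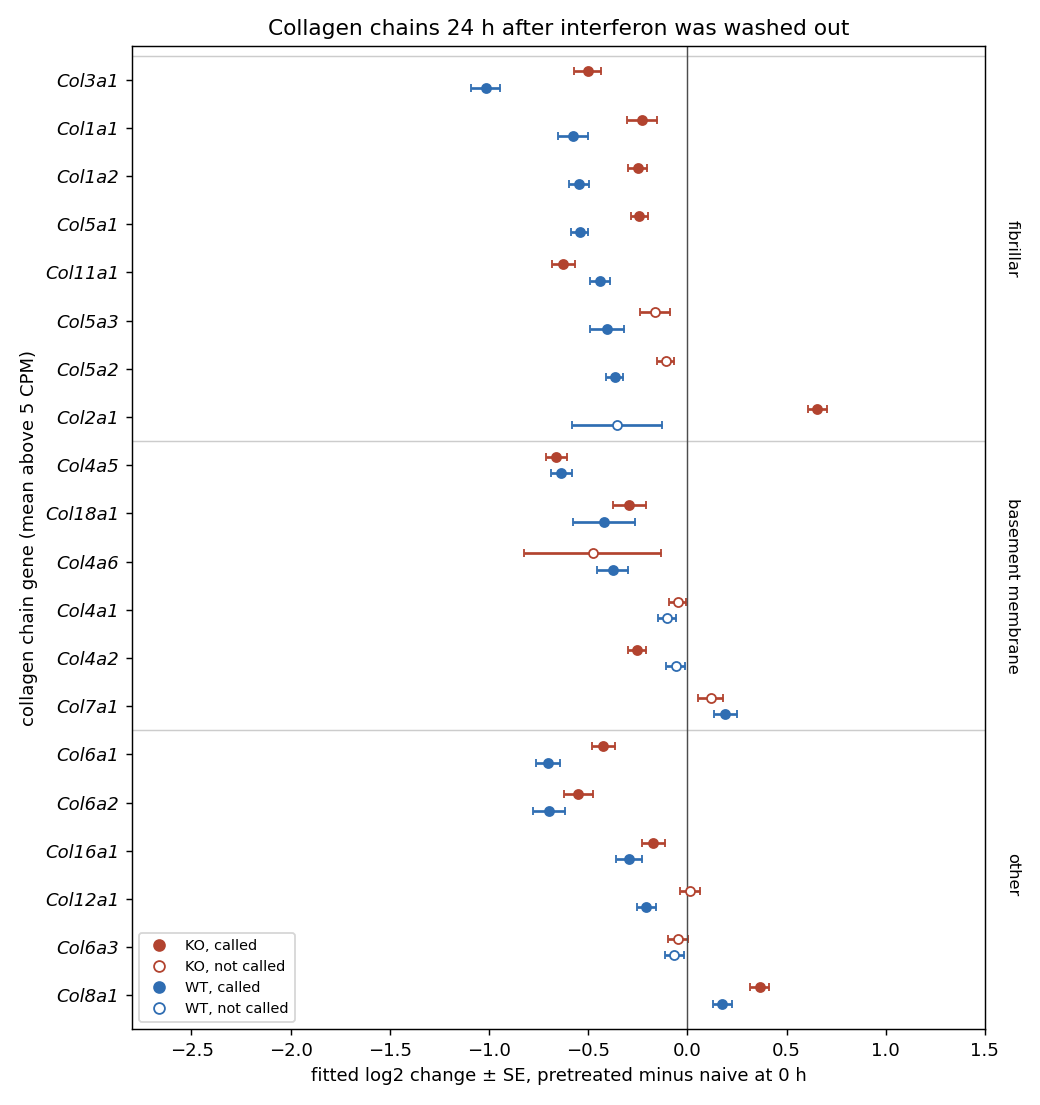
Fitted log2 change with SE, pretreated minus naive at 0 h, in KO (red, upper) and WT (blue, lower) for the 20 collagen chain genes tested with a mean above 5 CPM, by class; filled points were called. Most points lie left of 0, with Col2a1 in KO and Col7a1 and Col8a1 in both genotypes to the right.

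The washout effect itself differed between the genotypes for 5 collagens, all fibrillar and all with a less negative or positive change in KO. This was 5 of 36, where 3.22% of all genes were called (1.71% higher and 1.51% lower). The difference, KO minus WT, was 1.01 ± 0.23 (edgeR adjusted p = 0.01) for Col2a1, 0.51 ± 0.10 (edgeR adjusted p = 0.002) for Col3a1 and 0.30 ± 0.062 (edgeR adjusted p = 0.0038) for Col5a1. For Col1a2 it was 0.29 ± 0.071 (edgeR adjusted p = 0.015) and for Col5a2 0.26 ± 0.059 (edgeR adjusted p = 0.011). Col3a1 fell by 0.50 on the log2 scale in KO and by 1.02 in WT, and Col1a2 by 0.25 and 0.54. The call of Col3a1 was lost by DESeq2, and those of Col1a2, Col5a1 and Col5a2 under scaling by total gene counts alone. Leaving out WT naive 0 h replicate 1 gave a count of 2, and Col1a2, Col2a1 and Col5a2 lost the call (0.27 (edgeR adjusted p = 0.059), 0.89 (edgeR adjusted p = 0.24) and 0.24 (edgeR adjusted p = 0.056)). That library and KO pretreated 0 h replicate 2 are among the 3 low in Rn45s and Lars2, and the part of that share in these differences was not tested.

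Interferon beta for 2 h changed some collagens in naive cells, in counts to be read beside the shares of all genes called. In KO 2 of 36 were higher and 8 lower, where 36.2% of all genes were called (19.1% higher and 17.2% lower), and in WT 4 were higher and 4 lower, where 30.6% were called (15% and 15.6%). Of the calls over all genes in WT, 48.9% were higher, and 59.6% by DESeq2. Scaling by total gene counts alone gave 0 collagens higher and 13 lower in WT. The KO side rests on 1 library at 2 h. Col1a1 was lower at 2 h in KO with a log2 difference of -0.59 ± 0.10 (edgeR adjusted p = 1.2e-05) and not called in WT (-0.14 ± 0.076, edgeR adjusted p = 0.17). Col5a1 likewise gave a log2 change of -0.44 ± 0.055 (edgeR adjusted p = 2.0e-07) in KO and -0.01 ± 0.044 (edgeR adjusted p = 0.94) in WT. Col4a1 and Col4a2 were higher at 2 h in WT, with a log2 difference of 0.36 ± 0.045 (edgeR adjusted p = 2.2e-07) and 0.33 ± 0.048 (edgeR adjusted p = 3.6e-06), and not called in KO (0.09 ± 0.053 and -0.10 ± 0.056). Col8a1 was higher in both, with a log2 difference of 0.65 ± 0.056 (edgeR adjusted p = 1.1e-10) in KO and 0.38 ± 0.048 (edgeR adjusted p = 2.4e-07) in WT, and Col3a1 was lower in both, with a log2 difference of -0.22 ± 0.084 (edgeR adjusted p = 0.039) in KO and -0.31 ± 0.072 (edgeR adjusted p = 0.0012) in WT. Both calls of Col3a1 were lost by DESeq2, and that in KO also without KO naive 0 h replicate 1 (-0.17, edgeR adjusted p = 0.20), without either WT naive 2 h library and in counts without Rn45s and Lars2.

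When the genotype difference of this response was tested, 6 of 36 collagens were called, where 15.3% of all genes were (8.46% higher and 6.85% lower). The difference, KO minus WT, was -0.45 ± 0.12 (edgeR adjusted p = 0.009) for Col1a1 and -0.43 ± 0.070 (edgeR adjusted p = 3.7e-05) for Col5a1. For Col4a2 it was -0.43 ± 0.074 (edgeR adjusted p = 9.7e-05), for Col4a1 -0.27 ± 0.070 (edgeR adjusted p = 0.0073), for Col8a1 0.27 ± 0.074 (edgeR adjusted p = 0.011) and for Col12a1 0.26 ± 0.078 (edgeR adjusted p = 0.023). Each of these values includes the single KO naive 2 h library. Scaled by total gene counts alone, 0 of the 6 were called by edgeR.

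The second exposure left Col4a1, Col4a2 and Col8a1 higher in both genotypes, of which Col4a1 and Col4a2 were not called under scaling by total gene counts alone. In pretreated KO cells 11 of 36 collagens were higher at 2 h and 0 lower (31.5% of all genes called, 17.9% higher and 13.6% lower), and in pretreated WT cells 4 were higher and 8 lower (22.7% called, 12.2% and 10.5%). The median was 0.16 in KO and -0.13 in WT, against -0.0092 over all genes in WT, and the difference between genotypes was not tested here. Over all genes called in WT, 53.6% were higher, against 64% by DESeq2 and 63.9% without Rn45s and Lars2. Col8a1 was higher with a log2 difference of 0.66 ± 0.045 (edgeR adjusted p = 3.4e-13) in KO and 0.60 ± 0.046 (edgeR adjusted p = 1.3e-11) in WT. Col4a1 was higher with a log2 difference of 0.33 ± 0.044 (edgeR adjusted p = 2.9e-07) in KO and 0.29 ± 0.045 (edgeR adjusted p = 9.9e-06) in WT, and Col4a2 with a log2 difference of 0.28 ± 0.045 and 0.21 ± 0.048. Col3a1 was higher with a log2 difference of 0.29 ± 0.068 (edgeR adjusted p = 0.0014) in KO and lower with a log2 difference of -0.27 ± 0.076 (edgeR adjusted p = 0.0091) in WT. The KO call was lost by DESeq2 and under scaling by total gene counts alone. The WT call was lost without WT pretreated 2 h replicate 1 (-0.06, edgeR adjusted p = 0.57) or WT pretreated 0 h replicate 1, by DESeq2, under scaling by total gene counts alone and in a fit of only the groups compared. Col1a1 was lower in WT with a log2 difference of -0.40 ± 0.076 (edgeR adjusted p = 2.2e-04) and not called in KO (0.09 ± 0.076, edgeR adjusted p = 0.42). The KO count was 2 when scaled by total gene counts alone, the WT count was 5 without WT pretreated 2 h replicate 1 (4 higher and 1 lower) and 7 without WT pretreated 0 h replicate 1 (4 higher and 3 lower), which turns the balance of directions, and the KO count was 7 without KO pretreated 0 h replicate 2.

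Genes that process, bind and degrade collagen were read from 7 lists, against a background of 79.4% of all genes called (41.3% higher and 38.1% lower). In KO against WT, averaged over the 4 conditions, the list of prolyl and lysyl modification and folding had 8 of 18 tested members higher and 10 lower (median log2 change -0.17). Serpinh1, the collagen chaperone HSP47, was lower with a log2 difference of -0.39 ± 0.023 at 678 to 932 CPM in KO and 818 to 1345 CPM in WT, and P4hb, a subunit of prolyl 4-hydroxylase, was lower with a log2 difference of -0.30 ± 0.022. The lysyl hydroxylase genes Plod1 and Plod3 were higher with a log2 difference of 0.49 ± 0.031 and 0.37 ± 0.027. Propeptide removal and crosslinking had 10 of 12 higher and 2 lower (median 0.44). In that list Loxl2, a lysyl oxidase that crosslinks type IV collagen, was higher with a log2 difference of 4.11 ± 0.036 at 104 to 123 CPM in KO and 5.77 to 7.62 CPM in WT. Loxl3 was higher with a log2 difference of 1.38 ± 0.026, the procollagen protease Adamts14 with a log2 difference of 2.78 ± 0.068 and Pxdn, which forms the sulfilimine bonds of type IV collagen, with a log2 difference of 0.68 ± 0.022. Export from the endoplasmic reticulum had 4 of 6 higher and 1 lower (median 0.19), led by Sec23a, a coat protein of export vesicles (0.98 ± 0.027), with Creb3l1 at -0.55 ± 0.051, Klhl12 at 0.40 ± 0.043 and Sec24d at 0.24 ± 0.028.

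Basement membrane partners, the laminins, nidogens and proteoglycans that join type IV collagen, had 8 of 15 members higher in KO and 4 lower (median 0.39), close to the share of all genes called (79.4%, with 41.3% higher and 38.1% lower). Lama4 was higher with a log2 difference of 6.98 ± 0.074 at 38 to 64.1 CPM in KO and 0.146 to 0.625 CPM in WT, and Lama2 lower with a log2 difference of -5.88 ± 0.081 at 0.514 to 1.75 CPM in KO and 39.6 to 84.4 CPM in WT. Lama5 and the proteoglycan gene Agrn were higher with a log2 difference of 2.56 ± 0.037 and 2.28 ± 0.035. Collagen receptors had 5 of 8 higher and 3 lower (median 0.29). The integrin chain Itga11 was lower with a log2 difference of -2.53 ± 0.038, the uptake receptor Mrc2 higher with a log2 difference of 2.15 ± 0.032, and the discoidin receptors Ddr1 and Ddr2 higher with a log2 difference of 0.74 ± 0.031 and 0.52 ± 0.022. Collagen degradation had 4 of 7 higher and 3 lower (median 0.28), with the protease inhibitor gene Timp3 lower with a log2 difference of -2.56 ± 0.027 at 135 to 414 CPM in KO and 1047 to 2561 CPM in WT. In the same list Ctsk, a collagen-degrading cathepsin, gave a log2 change of 5.59 ± 0.14, Mmp14 0.61 ± 0.024 and Timp2 -0.55 ± 0.022. The TGF-beta pathway, which drives fibrillar collagen genes in fibroblasts, had 10 of 16 higher and 6 lower (median 0.36). Ltbp2 gave a log2 change of 6.93 ± 0.068, Smad3 0.89 ± 0.027 and Tgfbr2 -0.80 ± 0.026. All genes of these lists that are named here had edgeR adjusted p below 0.05.

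After washout the lists were read against the shares of all genes called, which were 21.7% (11.1% higher and 10.6% lower) in KO and 24% (12.6% and 11.4%) in WT. In KO, modification and folding had 1 member higher and 5 lower of 18, and in WT 0 and 8. Lepre1, a prolyl 3-hydroxylase, gave a log2 change of -0.46 ± 0.064 in KO, Serpinh1 -0.30 ± 0.043 and Leprel2 -0.39 ± 0.059. In WT, Fkbp14 gave a log2 change of -0.58 ± 0.081, Leprel2 -0.36 ± 0.059 and Serpinh1 -0.26 ± 0.043. Receptors had 0 of 8 higher and 4 lower in KO, and 0 and 5 in WT, with Itga11 at -1.0 ± 0.078 in KO and -0.72 ± 0.057 in WT and Mrc2 at -0.49 ± 0.051 and -0.40 ± 0.071. Export had 0 of 6 called in KO, and 0 higher and 4 lower in WT, where Sec24d gave a log2 change of -0.33 ± 0.055 and Sec23a -0.32 ± 0.055. Crosslinking and propeptide removal had 3 of 12 higher and 4 lower in KO, with Tgm2 at -0.52 ± 0.083, and 1 higher and 4 lower in WT. In WT Lox, the crosslinking oxidase of fibrils, gave a log2 change of -0.59 ± 0.047 and Adamts2 -0.54 ± 0.049. Basement membrane partners had 2 of 15 higher and 7 lower in KO and 3 and 5 in WT, with Lamb2 at -0.45 ± 0.047 in KO and -0.30 ± 0.049 in WT and Lama2 at -0.62 ± 0.079 in WT. Degradation had 3 of 7 higher and 3 lower in KO and 1 and 3 in WT, with Mmp2 at -0.27 ± 0.042 and -0.39 ± 0.042. The TGF-beta list had 4 of 16 higher and 4 lower in KO and 5 and 3 in WT, with Tgfbr2 at -0.36 ± 0.049 in KO and -0.51 ± 0.047 in WT.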

How the data were processed

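Bulk RNA of 15 libraries (7 KO, 8 WT) was analysed from the deposited tables of read counts per gene symbol. The counts were deposited unnormalised, made by a chain in which STAR 2.5.2b, HTSeq, bcl2fastq 2.15 and build mm9 appear, per the submitters' processing notes; annotation and strand setting were not given in the sources used here. The 5 summary lines of each table that name no gene were left out.

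Levels are CPM of gene counts, and precision differs with depth, from 17170845 to 44116418 gene counts. Levels per length used GENCODE M21 transcript lengths. Tests used edgeR 4.0.16 (R 4.3.3): TMM scaling, filterByExpr with a minimum count of 10, 1 coefficient for each of the 8 groups, glmQLFit and glmQLFTest over 13802 genes, with Benjamini-Hochberg adjustment and a threshold of 0.05. Values after ± are standard errors of log2 changes unless SD is stated. Count ratios of near-absent genes carry exact 95% binomial intervals, which cover counting error only. The fit was tested on simulated data with known fold changes. The simulated libraries shared a common profile in which few genes changed. That setting could not show how the fit does where most genes differ, or how calls depend on scaling.

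The members, partner lists and markers were chosen with earlier results of these data known. Every library is given for the 8 members highest in CPM and for the called members with the 3 largest rises and falls of each class between KO and WT or of each washout comparison, with Col6a2 added after its values were seen; partner genes named are among those with the smallest p of each list. Alternatives were RLE size factors, total counts alone, counts without Rn45s and Lars2, no filter, DESeq2 1.42.0, only the groups compared, a replicate block, and leaving out libraries. Python 3.11.15 with pandas 2.3.3, scipy 1.17.1 and matplotlib 3.10.9 was used.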

Additional observations from a re-analysis of the deposited data

Results flagged for a closer look

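The response to 2 h of interferon in naive cells differed between KO and WT for 6 collagen chain genes by edgeR's interaction test. This was 6 of 36 tested, near the share of all genes called, which was 15.3% (8.46% higher and 6.85% lower). The difference of log2 changes, KO minus WT, was -0.45 for Col1a1, -0.43 for Col5a1, -0.43 for Col4a2, -0.27 for Col4a1, 0.27 for Col8a1 and 0.26 for Col12a1. All 6 rest on 1 KO library at naive 2 h, and Col4a1, Col4a2 and Col5a1 kept the call when any other single library was omitted. Scaled by total gene counts alone, 0 of the 6 kept it.

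The washout effect differed between KO and WT by the same kind of test for 5 fibrillar chains. This was 5 of the 36 collagens tested, where 3.22% of all genes were called (1.71% higher and 1.51% lower). The difference of log2 changes, KO minus WT, was 1.01 for Col2a1, 0.51 for Col3a1, 0.30 for Col5a1, 0.29 for Col1a2 and 0.26 for Col5a2. Col3a1 and Col5a1 kept the call under omission of any library, but 0 of the 5 kept it under every alternative. Col3a1 lost it by DESeq2 (0.51, DESeq2 adjusted p = 0.092), and Col5a1 under scaling by total gene counts alone (0.45, edgeR adjusted p = 0.43). No group had the 4 libraries that a test for outlying samples needs.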

How the results depend on the processing

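The counts of collagens called between KO and WT, averaged or by condition, stayed within 1.5 times the main count under every alternative run, and 29 of the 32 average calls held under all. Scaled by total gene counts alone, the interferon count in naive WT was 13 (8 in the main analysis), the restimulation counts 2 in KO (11) and 4 in WT (12), the washout count 11 in KO (18), and the counts of genotype differences 0 for interferon (6) and 2 for washout (5). That scaling moved the median of all genes by -0.25 for interferon in WT, -0.21 in KO, -0.16 for restimulation in KO and -0.18 for washout in WT, and it turned Col12a1 (interferon in KO, -0.011), Col6a3 (interferon in WT, -0.0016; restimulation in KO, -0.0022) and Col1a2 (restimulation in KO, -0.015). Without a filter the interferon count in WT was 13 and the count of genotype differences of washout 8, and DESeq2 called 5 for interferon in WT. Without the 3 libraries low in Rn45s and Lars2 the counts were 5 for restimulation in WT, 11 for washout in WT and 2 for genotype differences of washout. Leaving out 1 library at a time gave 7 to 12 for restimulation in KO, 5 to 13 for restimulation in WT, 11 to 17 for washout in WT and 2 to 7 for genotype differences of washout. Col20a1, Col4a4 and Col4a3, not called between KO and WT, ranged from -0.098 to 0.044, from -0.48 to 0.12 and from -1.0 to -0.44 in the same way, and Col4a3 was called in 3 of these fits and under total gene counts alone (-0.64); Col20a1 was 0.0011 without those 3 libraries and 0.032 without naive 2 h, an alternative chosen after seeing the data. CPM computed without Rn45s and Lars2 gave mean collagen sums of 11255 in KO and 14349 in WT. The cause of these changes was not tested. Same-numbered libraries did not deviate together (correlations -0.10 to 0.20 over 21 pairs of groups, 5 above 0.1), so the numbers are not taken as pairs. With a replicate block the count of genotype differences of washout was 9 (8 higher and 1 lower). These were the 5 of the main analysis and others gained under the block. No collagen called in the main analysis lost its call under the block. The single KO naive 2 h library could not be left out of the contrasts that use it. Depth limits the genes near 0, such as Col4a3, Col4a4 and Col6a6.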
